A study of Mus musculus with 6 samples.

Results

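Hedgehog reception and response were followed through 9 genes in embryonic nasal septum cartilage: the receptor genes Ptch1, Smo and Hhip, the coreceptor genes Boc and Gas1, the GLI inhibitor gene Sufu, and the transcription factor genes Gli1, Gli2 and Gli3. They were taken by name, and all 9 were found among the 38924 genes counted. Cartilage of the anterior nasal septum was cut by laser from frozen head sections of C57BL/6 mouse embryos at embryonic day 14.5. The Apert group was 3 mice of genotype Fgfr2+/S252W; EIIA-Cre, which carry on 1 copy of a fibroblast growth factor receptor gene the substitution found in Apert syndrome, a human craniosynostosis. The WT group was 3 wild-type mice, for which the labels name no Cre. The EIIa promoter is active in the early embryo, so recombination is expected throughout the body and not in cartilage alone.

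Hedgehog ligands bind Patched-1, which otherwise keeps the seven-pass protein Smoothened inactive; Smoothened then acts in the primary cilium to release GLI factors from Sufu and from processing into repressors. GLI activators induce Ptch1, Gli1 and Hhip, so these transcripts rise with pathway activity and 2 of their products dampen it in turn. In growing cartilage the ligand Indian hedgehog comes from prehypertrophic chondrocytes and is received by neighbouring chondrocytes and by the perichondrium.

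The promoters of 3 members are shown, those of the 2 genes whose libraries did not overlap between genotypes, Ptch1 and Gli2, and that of Hhip, an induced gene that was nearly silent here. Each is the 250 bases before the RefSeq start on GRCm38.p6, 5′ to 3′ on the gene's strand, which is the minus strand for all 3. Capitals mark CCACCC or its reverse complement, the core of the GLI motif GACCACCCA. The windows are chr13:63565736-63565985 for Ptch1, chr1:119053620-119053869 for Gli2 and chr8:80058009-80058258 for Hhip.
Ptch1: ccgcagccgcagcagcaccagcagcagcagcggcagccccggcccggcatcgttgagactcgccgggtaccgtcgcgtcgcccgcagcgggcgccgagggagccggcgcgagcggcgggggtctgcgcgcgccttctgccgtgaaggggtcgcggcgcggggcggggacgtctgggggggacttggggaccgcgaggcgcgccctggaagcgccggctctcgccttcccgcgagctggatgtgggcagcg
Gli2: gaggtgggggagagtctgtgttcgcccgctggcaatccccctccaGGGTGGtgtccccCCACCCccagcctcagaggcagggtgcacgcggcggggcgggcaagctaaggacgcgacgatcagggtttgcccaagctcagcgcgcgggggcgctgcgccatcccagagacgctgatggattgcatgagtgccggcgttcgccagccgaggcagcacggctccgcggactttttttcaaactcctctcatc
Hhip: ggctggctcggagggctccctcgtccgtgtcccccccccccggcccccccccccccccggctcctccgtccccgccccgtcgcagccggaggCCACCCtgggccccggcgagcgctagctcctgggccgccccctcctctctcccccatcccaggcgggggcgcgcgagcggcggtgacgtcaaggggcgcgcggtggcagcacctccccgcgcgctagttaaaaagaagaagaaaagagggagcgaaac
The 9-base motif was searched on both strands and was found in 0.225% of 32851 windows of this length in the whole table. It was in none of the 7 member windows available, those of Ptch1, Smo, Hhip, Gas1, Sufu, Gli2 and Gli3. For so rare a motif, absence from 7 windows says little, and only exact matches within these 250 bases were searched. The core, which lies within the longer motif, was in 28.1% of all windows and in those of Gli2, Gli3, Hhip and Smo. The Ptch1, Hhip and Gli2 windows held 78.4%, 76% and 67.2% G and C.

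Library totals ran from 6760510 to 10527915 counts in Apert and from 8631181 to 10834744 counts in WT, so 1 count was worth 0.0923 to 0.148 CPM, the count scaled to the size of its library. Fgfr2 itself had 583, 509.5 and 466 CPM in the Apert libraries, against 699.6, 581 and 609 CPM in the WT libraries. The groups overlapped and the difference did not pass the test (adjusted p = 0.461), and a point mutation leaves the counted exons in place, so these counts check no label. The annotated Fgfr2 shares exons with its neighbour Ctbp2. All 24 cartilage markers reached 1 CPM in at least 1 library, with summed levels of 41539 to 44862 CPM in Apert and 40570.0 to 52027 CPM in WT, while 17 of 19 epithelial markers stayed below 1 CPM in every library. The mitochondrial genome took 34.3% to 40.4% of counts in Apert and 28.8% to 30.2% in WT.

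No member was called at an adjusted p below 0.05 by edgeR's quasi-likelihood test across all 13333 genes tested. DESeq2, which gave Gli1 no adjusted p, and limma-voom called 0 as well. Across the whole table the test called 0.45% of genes, of which those higher in Apert were 0.398% and those lower 0.0525%. Of the 9 members 8 passed the filter on low counts and were tested. Among these 8, 3 had an unadjusted p below 0.05 (Ptch1, Gli2 and Gli1, with lower means in Apert), beside 11.4% of all tested genes. That count was 0 without WT replicate 2, 1 without Apert replicate 2 and 1 with a correction for GC content. The groups of libraries did not overlap for Ptch1 and Gli2, 2 of 8 members, beside 16.6% of all tested genes. The log2 fold change was negative for 6 members and positive for 2, with a median of -0.23 against 0.01 over all tested genes; with a correction for GC content Smo and Boc turned positive. In sectioned tissue, fewer cells of a type and less RNA per cell cannot be told apart.

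**Figure D1:**
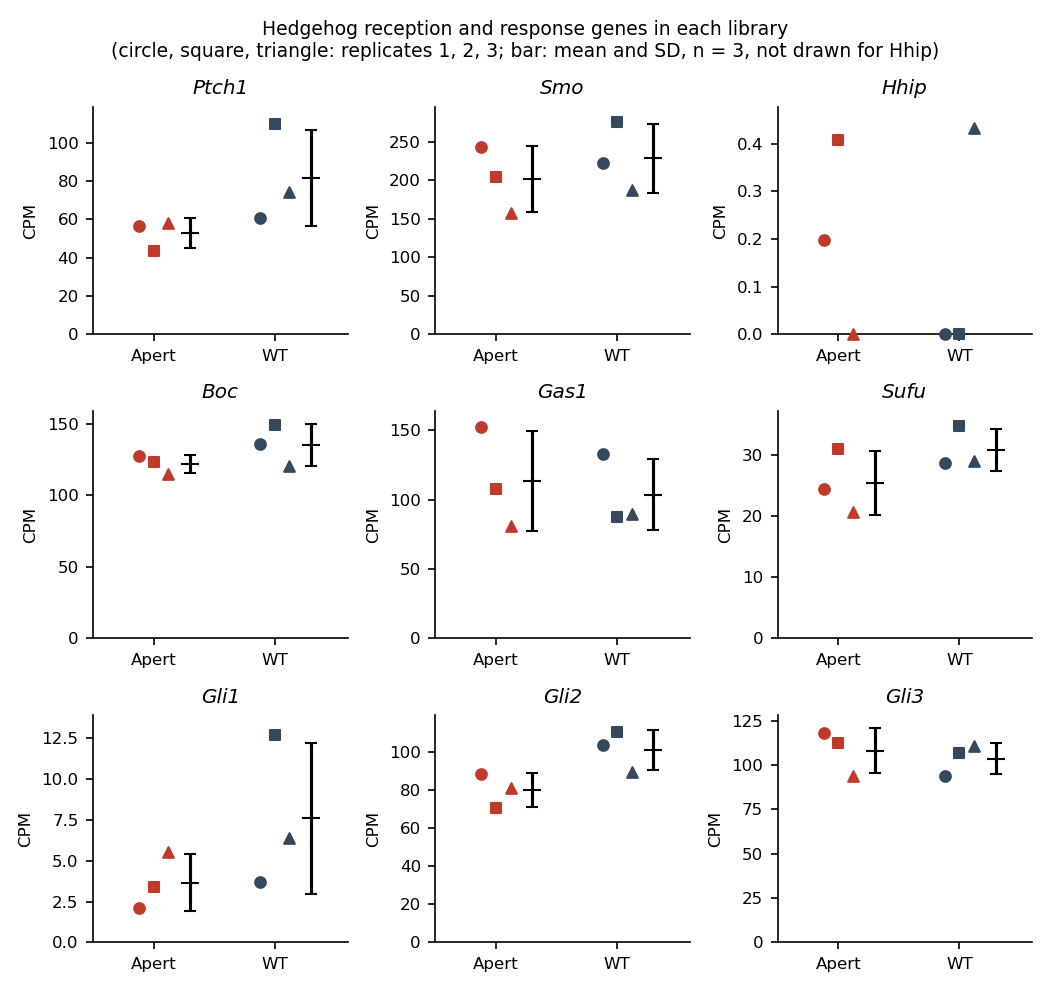
CPM (TMM-scaled) of the 9 genes in each library, Apert left of WT, with the mean and SD of 3 libraries beside the points. Ptch1 lies at 43.7 to 58.0 CPM in Apert and 60.8 to 109.7 CPM in WT; Hhip never exceeds 0.433 CPM.

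Ptch1 was the receptor gene with the smallest p of the members. Ptch1 (ENSMUSG00000021466, chr13:63511533-63565520, minus strand, mm10) had 56.6, 43.7 and 58.0 CPM in the Apert libraries, against 60.8, 109.7 and 74.2 CPM in the WT libraries. Every Apert library lay below every WT library, but WT replicate 1 stood only just above Apert replicate 3, and WT replicate 2 stood far above the rest. The means were 52.8 ± 7.90 CPM in Apert and 81.6 ± 25.2 CPM in WT (SD, n = 3 each). The level in Apert was 0.647 times that in WT, with a 95% interval of 0.481 to 0.870 for this gene alone, and did not pass over all genes (log2 fold change -0.63, standard error 0.20, adjusted p = 0.221). Without WT replicate 2 the log2 fold change was -0.36 (adjusted p = 0.705). When no expression filter was applied Ptch1 passed (log2 fold change -0.65, adjusted p = 0.0327), the only member called in any of 17 alternative fits. That fit called 247 of 23141 genes tested, beside 60 of 13333 in the main fit.

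Smo, which encodes the transducing receptor that Patched-1 restrains, was the most abundant member. Smo (ENSMUSG00000001761, chr6:29735694-29761365, plus strand) had 244, 204 and 158 CPM in the Apert libraries, against 223, 275 and 187 CPM in the WT libraries. The groups overlapped, and the estimate on the log2 scale, -0.18 with standard error 0.17 (adjusted p = 0.743), left a 95% interval of 0.689 to 1.13 for the level in Apert over that in WT. Set within each library, the log2 CPM of Ptch1 minus that of Smo was -2.11, -2.23 and -1.44 in Apert, against -1.87, -1.33 and -1.34 in WT. These differences do not depend on library scaling, and they too overlapped, through Apert replicate 3 and WT replicate 1.

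Hhip, which encodes a membrane-bound decoy that binds hedgehog ligands, was close to silent. Hhip (ENSMUSG00000064325, chr8:79966115-80058006, minus strand) had 2, 3 and 0 counts in the Apert libraries, against 0, 0 and 4 counts in the WT libraries. It was not tested. A count of 0 allows up to 3 counts, or 0.277 to 0.444 CPM depending on the library, and the largest count seen was 4, so no fold change is given.

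The coreceptor genes were abundant and overlapped between genotypes. Boc encodes an immunoglobulin-domain protein that binds hedgehog ligands beside Patched-1. Boc (ENSMUSG00000022687, chr16:44485045-44558897, minus strand) had 128, 123 and 115 CPM in the Apert libraries, against 136, 149 and 120.4 CPM in the WT libraries. Its log2 fold change was -0.15 (standard error 0.14, adjusted p = 0.745; 95% interval 0.733 to 1.11 for Apert over WT). Gas1 encodes a membrane-anchored coreceptor and, in the mouse, is lowered by hedgehog signalling in several tissues. Gas1 (ENSMUSG00000052957, chr13:60174405-60177365, minus strand) had 152, 107 and 80.7 CPM in the Apert libraries, against 133, 87.7 and 89.8 CPM in the WT libraries. The Apert libraries held both its highest and its lowest value. On the log2 scale the difference was 0.13 with standard error 0.21 (adjusted p = 0.86), and it turned to -0.17 without Apert replicate 1.

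Sufu encodes the cytoplasmic protein that holds GLI factors back. Sufu (ENSMUSG00000025231, chr19:46396896-46488804, plus strand) had 24.4, 31.0 and 20.7 CPM in the Apert libraries, against 28.7, 34.7 and 29.0 CPM in the WT libraries. The groups overlapped only through Apert replicate 2, and the difference did not pass (log2 fold change -0.28 with standard error 0.21, adjusted p = 0.66).

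Of the 3 GLI genes, Gli1 was the scarcest and had the largest standard error. Gli1 encodes an activator that is itself induced by the pathway. Gli1 (ENSMUSG00000025407, chr10:127329889-127341589, minus strand) had 21, 25 and 34 counts in the Apert libraries, against 43, 132 and 59 counts in the WT libraries. In CPM these were 2.08, 3.40 and 5.51 in Apert, against 3.73, 12.7 and 6.39 in WT, so Apert replicate 3 lay above WT replicate 1. The difference did not pass (log2 fold change -1.08, standard error 0.47, adjusted p = 0.401; 95% interval 0.238 to 0.941 for Apert over WT). Without WT replicate 2 it was -0.48 (adjusted p = 0.887). Gli1 shares exons with Arhgap9 on the opposite strand and counting ignored strand, but Arhgap9 had 17 counts over the 6 libraries beside 314 for Gli1.

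Gli2 encodes the main activator and Gli3 the main repressor of the pathway in most mouse tissues. Gli2 (ENSMUSG00000048402, chr1:118834132-119053619, minus strand) had 88.4, 70.5 and 80.9 CPM in the Apert libraries, against 103, 110.4 and 89.6 CPM in the WT libraries. Every Apert library lay below every WT library, by a small margin between Apert replicate 1 and WT replicate 3. The difference did not pass (log2 fold change -0.34, standard error 0.15, adjusted p = 0.419). Gli3 (ENSMUSG00000021318, chr13:15463235-15730026, plus strand) had 118, 112 and 93.8 CPM in the Apert libraries, against 93.5, 107 and 110.4 CPM in the WT libraries. These overlapped throughout (log2 fold change 0.06, standard error 0.15, adjusted p = 0.915; 95% interval 0.839 to 1.30 for Apert over WT), and with libraries scaled by their totals alone the sign turned (-0.09).

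The make-up of the GLI pool was compared within each library, from CPM per kb of counted exon. Gli1 took 2.21%, 4.06% and 6.52% of the summed GLI level in the Apert libraries, against 3.94%, 11.3% and 6.62% in the WT libraries. Gli2 averaged 48.6% ± 3.32 in Apert and 53.4% ± 4.45 in WT, and Gli3 47.1% ± 4.38 in Apert and 39.3% ± 3.97 in WT (SD, n = 3 each). Gli2 and Gli3 thus made up nearly all of the pool in both genotypes. The highest Gli3 share in WT, 43.8% in replicate 3, lay above the lowest in Apert, 42.4% in replicate 3, so the shares overlapped for all 3 genes.

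**Figure D2:**
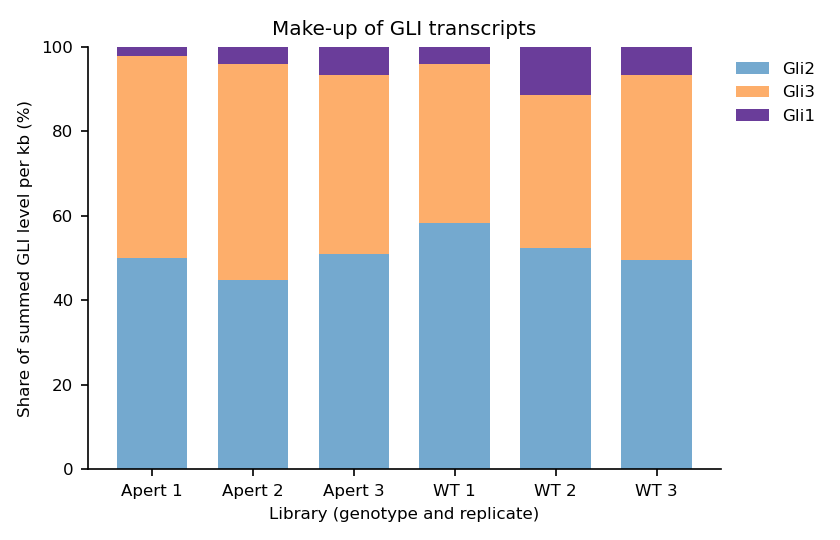
Share of each GLI gene in the summed GLI level (CPM per kb of counted exon, percent) in each library, Apert libraries left of WT libraries. Gli1 is the thin top segment, from 2.21% in Apert replicate 1 to 11.3% in WT replicate 2.

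Levels of the members were ordered per kb of counted exon. In the Apert libraries Smo lay at 41.7 to 64.5 CPM per kb, Gas1 at 27.3 to 51.5 and Boc at 25.8 to 28.7, and in the WT libraries Smo lay at 49.6 to 72.9, Gas1 at 29.6 to 45.0 and Boc at 27.0 to 33.5. The ranges of Gas1 and Boc overlapped in both genotypes, those of Smo and Gas1 in Apert but not in WT, and all 3 genes lay above the others in both. Within each library of both genotypes, Smo lay above Gas1. Ptch1, Gli2 and Gli3 overlapped in Apert, at 10.1 to 13.5, 10.3 to 12.9 and 9.78 to 12.3 CPM per kb. In WT Ptch1 (14.1 to 25.5 CPM per kb) overlapped with Gli2 (13.0 to 16.1), and both lay above Gli3 (9.75 to 11.5). Sufu, at 2.99 to 4.47 CPM per kb in Apert and 4.13 to 4.996 in WT, stood above Gli1, at 0.568 to 1.503 in Apert and 1.02 to 3.47 in WT. Hhip (0 to 0.0884 CPM per kb over the 6 libraries) lay below all others. Among all tested genes Smo stood at percentile 97.4 of level per kb, Ptch1 at 84.1 and Gli1 at 22.9. The exons counted for Ptch1 cover 4305 bases, while its longest GENCODE M21 transcript has 10383 bases. With longest transcript lengths Ptch1 moved below Gli2 and Gli3, to rank 6.

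**Figure D3:**
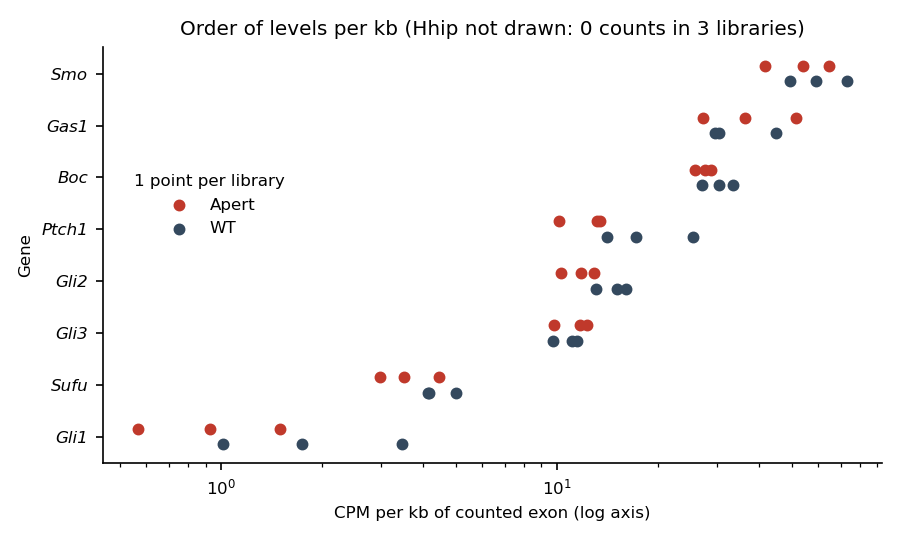
Level per kb of counted exon (CPM per kb, log axis) of 8 members in each library, Apert above WT for each gene. Smo, Gas1 and Boc lie above the other genes, and Gli1 lies lowest with the widest spread, from 0.568 to 3.47.

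WT replicate 2 held the highest value of 6 of the 8 tested members (Ptch1, Smo, Gli1, Gli2, Sufu and Boc) and Apert replicate 3 the lowest of 4 (Smo, Sufu, Boc and Gas1). The shares of all tested genes that were highest or lowest in these libraries were not counted, so these counts may not be particular to the members. The tested gene most like Ptch1 across the 6 libraries was Bsg, followed by Rundc1 and Tgm2, with root mean square differences of centred log2 CPM of 0.09, 0.09 and 0.10, where the median over 11630 ranked genes was 0.51. Those most like Gli1 were Naa10, Zfp879 and Kirrel3os, at 0.19, 0.24 and 0.25 with a median of 0.88. Among the members themselves Gli2 was closest to Ptch1, at 0.26 and rank 386, and Ptch1 was closest to Gli1, at 0.53 and rank 168. Seen from Ptch1, the same difference of 0.53 put Gli1 at rank 6373 of 11630, above the median of 0.51.

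A correction for base composition changed the estimates of 6 members more than those of Ptch1 and Gli3. Such a correction moves genes of like GC content alike. The part of base composition in these differences was not tested. The longest transcripts of Smo, Gli1, Gli2, Sufu, Boc and Gas1 had 57.8%, 59.0%, 57.5%, 55.8%, 55.9% and 58.4% G and C, and those of Ptch1 and Gli3 had 47.8% and 48.4%. When a curve of each library on transcript GC content was taken out, the log2 fold changes of the 6 GC-rich members moved up by 0.22 to 0.34, while those of Ptch1 and Gli3 moved by -0.03 and -0.003. Smo was then at 0.10, Boc at 0.07, Gas1 at 0.41, Gli2 at -0.07 and Sufu at -0.06, and the median of the members was -0.0011. Gli1 was at -0.74 (standard error 0.45, adjusted p = 0.77) and Ptch1 at -0.66 (standard error 0.21, adjusted p = 0.346). For Ptch1 the longest transcript exceeds the counted exons, and with the annotated transcript nearest to them in length (2216 bases, 49.9% G and C) Ptch1 was at -0.60.

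**Figure D4:**
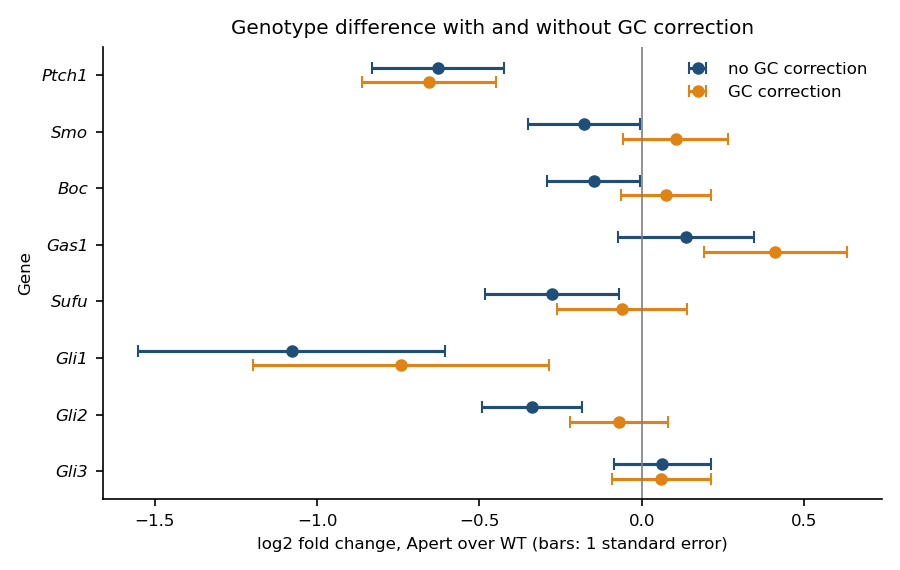
Log2 fold change of Apert over WT with 1 standard error for the 8 tested members, without and with correction for GC content. Ptch1 is at -0.63 and -0.66, while Smo and Boc are negative without the correction and positive with it.

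Among all marker and pathway lists that were summed, 3 did not overlap between genotypes and the others did. Among single genes, the groups did not overlap for 16.6% of all tested genes, and 0.45% were called. A sum weighs the most abundant genes of its list most. Perichondrium and fibrous mesenchyme markers, a compartment that receives hedgehog signals around cartilage, summed to 5214 to 6089.8 CPM in Apert and 4252 to 4804 CPM in WT. Of 27 such markers 21 were tested, 2 were called higher in Apert (the collagen gene Col3a1 and the small leucine-rich proteoglycan gene Ogn), none was called lower, 15 log2 fold changes were positive and 6 negative, the median log2 fold change was 0.50, and Dpt and Tnmd had no count in any library. Glia and neuron markers summed to 292 to 338 CPM in Apert and 375 to 449.7 CPM in WT, with 0 of 10 tested called and Foxd3 at 0. Cell cycle genes summed to 3372 to 4011 CPM in Apert and 1683 to 2422 CPM in WT, with 11 of 27 called higher. With mitochondrial genes removed before the edgeR fit, 55 genes and no member were called, and 3 members had an unadjusted p below 0.05. That fit takes mitochondrial counts out of the library totals, and the set tested changed with it, to 13403 genes. The part of these markers and of the mitochondrial share in the values of Ptch1, Gli1 and Gli2 was not tested.

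The rest of the pathway was read from 5 lists of 118 genes, of which 100 were tested. None of the 100 was called by edgeR, DESeq2 or limma-voom, and 7 had an unadjusted edgeR p below 0.05, beside 11.4% of all tested genes. Their median log2 fold change was -0.02, with 46 positive and 54 negative.

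Hedgehog ligand transcripts were at or near the limit of detection. Shh had 0 counts in all 6 libraries. Ihh had 3, 0 and 0 counts in the Apert libraries, against 1, 0 and 0 counts in the WT libraries, and Dhh had 0, 0 and 0 counts in the Apert libraries, against 0, 9 and 1 counts in the WT libraries. WT replicate 2, which had the 9 counts of Dhh, also held the highest value of 6 of the 8 tested members, a count without the share of all genes beside it. WT replicate 2 also had the largest sums of cartilage markers (52027 CPM), blood markers (104 CPM) and glia and neuron markers (449.7 CPM). A link between these values was not tested. Of 10 prehypertrophic and hypertrophic markers, 5 stayed below 1 CPM in every library, among them Mmp13 and Ibsp, which had no count. Col10a1, the collagen of hypertrophic cartilage, was at 3.90 ± 1.75 CPM in Apert and 5.78 ± 0.79 CPM in WT (SD, n = 3 each). Panx3 was at 16.6 ± 5.34 CPM in Apert and 11.3 ± 5.84 CPM in WT (SD, n = 3 each). Runx2 and Mef2c had 4622 and 4905 counts over the 6 libraries. The 10 markers summed to 178 to 208 CPM in Apert and 202 to 219 CPM in WT. Of these, 5 were tested and 0 called, with 2 log2 fold changes positive and 3 negative.

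Of 15 genes for ligands, their processing and release, 9 were tested, 0 were called and 1 had an unadjusted p below 0.05 (median log2 fold change -0.06). Scube3, a secreted protein of a family that helps to release ligand, was at 360.3 ± 83.2 CPM in Apert and 462 ± 50.5 CPM in WT (SD, n = 3 each; log2 fold change -0.36, adjusted p = 0.407). Without Apert replicate 1 it was at -0.60 (adjusted p = 0.043). In the other alternatives it did not pass, and with GC correction it was at -0.12 (adjusted p = 0.924). The glypican gene Gpc3, whose product restrains hedgehog signalling in the mouse, was at 0.28 (adjusted p = 0.475), the heparan sulfate polymerase gene Ext1 at -0.27 and Disp1, which exports ligand from cells, at -0.26. The Boc relative Cdon was the 1 tested gene of 6 other receptor and coreceptor genes, at 202 ± 51.4 CPM in Apert and 237 ± 28.1 CPM in WT (SD, n = 3 each; log2 fold change -0.23, adjusted p = 0.652).

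All 32 transducers between Smoothened and GLI were tested, 0 were called and 4 had an unadjusted p below 0.05 (median log2 fold change -0.01). Mgrn1, a ubiquitin ligase that in the mouse helps to remove Smoothened from the cell surface, was at 26.5 ± 4.996 CPM in Apert and 43.2 ± 9.25 CPM in WT (SD, n = 3 each; log2 fold change -0.70, adjusted p = 0.169). It passed without Apert replicate 1 (-0.90, adjusted p = 0.0434) and with no expression filter (-0.73, adjusted p = 0.0478). In the other 15 alternatives it did not pass, and with GC correction it was at -0.49 (adjusted p = 0.616). The beta-arrestin gene Arrb1 was at -0.60 (adjusted p = 0.372) and the casein kinase gene Csnk1g2 at -0.51 (adjusted p = 0.408). Of 37 tested cilium genes 0 were called and 2 had an unadjusted p below 0.05 (median 0.02). The transition zone genes Cep290 and B9d1 were at 0.45 (adjusted p = 0.305) and -0.84 (adjusted p = 0.439), and the ciliary transport genes Ift81 and Dync2li1 at 0.38 and -0.77.

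Genes reported as hedgehog targets in various tissues gave 0 calls among 21 tested, by edgeR, DESeq2 or limma-voom, and 0 at an unadjusted p below 0.05 (median -0.21). Nkx3-2, a chondrogenic repressor, was at 1.18 ± 0.63 CPM in Apert and 2.60 ± 0.39 CPM in WT (SD, n = 3 each; log2 fold change -1.09, adjusted p = 0.516). The BMP antagonist gene Grem1 was at 1.22 (adjusted p = 0.543), Prdm1 at -1.19 (adjusted p = 0.589) and Foxc1 at 0.27 (adjusted p = 0.565). Leaving out single libraries, Grem1 ran from 0.79 (without WT replicate 2) to 2.19 (without WT replicate 1) and Prdm1 from -2.34 (without Apert replicate 3) to -0.77 (without Apert replicate 1). After GC correction the median of this list was 0.02. Pthlh and Pth1r, the ligand and receptor of the loop that Indian hedgehog drives in growth cartilage, had log2 fold changes of 0.13 and -0.30, neither past the test (adjusted p = 0.932 and 0.705).

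**Figure D5:**
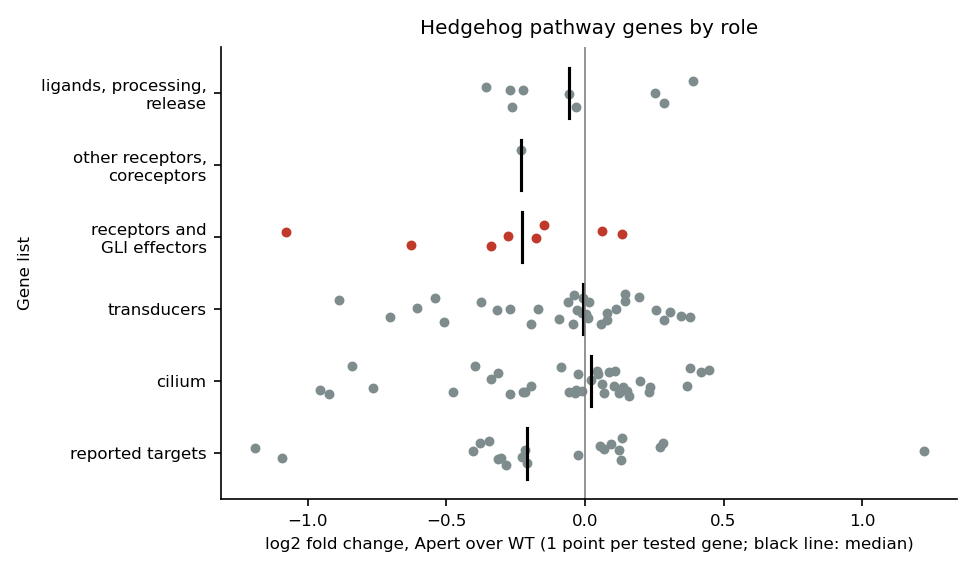
Log2 fold change of Apert over WT for each tested gene of 6 hedgehog lists, with the median of each list as a black line. The receptors and GLI effectors (median -0.23) and the reported targets (median -0.21) lie left of 0 here, where no GC correction was made (with it the medians are -0.0011 and 0.02), and no gene drawn passed the test.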

How the data were processed

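RNA-seq libraries of 6 mice, 1 each, were made from 15 ng of total RNA with the NuGEN Ovation kit and Nextera XT and read as 100 bp pairs, per the labels' protocols. Amplifying so little RNA can favour transcripts of some base compositions over others. The deposited values are whole-number fragment counts per Ensembl gene (release 75, GRCm38), made by the authors with featureCounts 1.4.4, unstranded, per the file headers. The submitters' processing notes also name cutadapt, STAR 2.5.2b and mm10. Of 38924 gene identifiers, 37607 matched a symbol; 1 of the 118 other pathway symbols, Talpid3, matched none.

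Counts were analysed with edgeR 4.0.16 in R 4.3.3 (filterByExpr, TMM scaling, quasi-likelihood F test, Benjamini-Hochberg adjustment over all 13333 genes tested, threshold 0.05). CPM uses TMM-scaled totals, except that the worth of 1 count and the limits for 0 counts use raw totals. Standard errors are the log2 fold change divided by the square root of F, and 95% intervals use them with a t quantile. Alternatives used DESeq2 1.42.0, limma 3.58.1 and, for GC content and exon length, mgcv 1.9.3 smooth curves as offsets; 13192 tested genes had a GC value, from GENCODE M21 transcripts. The code was tested on simulated data. Intervals and limits of single genes cover these libraries only, and no molecular identifiers were described.

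The members and lists were chosen with earlier results of these data known, as was the GC alternative. Corrections for exon length and for the GC content of the nearest-length transcript were added after seeing the data. Named genes are the 9 members, Fgfr2, up to 4 genes of each pathway list with the smallest p, and the 3 genes most like Ptch1 and Gli1 in root mean square difference; 1 gene that this names is not reported here. Shh, Ihh, Dhh, Col10a1, Mmp13, Ibsp, Panx3, Runx2, Mef2c, Pthlh, Pth1r, Col3a1, Ogn, Ctbp2, Dpt, Tnmd, Foxd3 and Arhgap9 were named after their values were seen. Equal replicate numbers are not stated to mark litters.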

Additional observations from a re-analysis of the deposited data

How the results depend on the processing

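None of the 8 tested members was called in 16 of 17 alternative fits, and 1 in the other. Leaving out each library in turn, log2 fold changes ran from -0.80 to -0.36 for Ptch1, -1.50 to -0.48 for Gli1, -0.45 to -0.26 for Gli2, -0.37 to -0.023 for Smo, -0.22 to -0.072 for Boc, -0.45 to -0.17 for Sufu, -0.038 to 0.14 for Gli3 and -0.17 to 0.36 for Gas1, with the sign of Gli3 turned without Apert replicate 1 (-0.038) or WT replicate 1 (-0.0052). In these fits 0 to 229 genes of the whole table and 0 members were called (229 without Apert replicate 1, and 0 without WT replicate 3), the transducer and ligand lists had 0 to 1 called, and list medians ran from -0.32 to -0.13 (members), -0.22 to -0.052 (ligands), -0.11 to 0.026 (transducers), -0.046 to 0.059 (cilium) and -0.21 to -0.012 (targets). With no expression filter Ptch1 was called at -0.65, so 1 member and 1 transducer passed, with 247 of 23141 tested genes called in all. With total counts alone the median of all genes was -0.14, and Gli3 (-0.090) and Gas1 (-0.017) lay below 0 but above that median; the medians were -0.21 (ligands), -0.16 (transducers), -0.14 (cilium) and -0.36 (targets). GC correction gave 5 called genes, Smo at 0.10, Boc at 0.074, and medians of -0.0011 (members), -0.054 (transducers) and 0.023 (targets). GC content of the nearest-length transcript gave 5 called genes, Smo at 0.099, Boc at 0.069, and medians of -0.0069 (members) and 0.020 (targets). The replicate block gave 172 called genes and no member (Ptch1 at -0.59). Deviations of same-numbered libraries correlated at 0.19, 0.02 and 0.086, not every library correlated best with its own number, and nothing in the labels pairs them. The replicate block with GC correction gave Smo at 0.086, Boc at 0.073, and medians of -0.012 (members), -0.055 (transducers) and 0.0074 (targets). DESeq2 called 223 genes. For these moves with scaling, filter and block the cause was not tested. Differences in Hhip and the ligands were not detectable at this depth.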
